A study of Mus musculus with 11 samples.

Results

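The cytosolic ribosomal proteins form the large and the small subunit of the ribosome that translates nuclear mRNAs. Their genes were chosen here by symbol, as Rpl or Rps followed by a digit, Rplp0 to Rplp2 and Rpsa, without pseudogene symbols, the Rps6k kinases and Rps19bp1. The rule found 81 genes among the 11118 genes of the normalised table, 48 of the large subunit and 33 of the small subunit by symbol. The 48 include Rpl37rt, which is annotated as a transcribed processed pseudogene but does not have a symbol that the rule left out. All 81 passed the low-count filter (above 1 CPM, the read count scaled to library size, in at least 4 pools) and were tested.

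The values come from bulk RNA-seq of type 1 conventional dendritic cells (cDC1s), the dendritic cells that cross-present antigen to CD8+ T cells, sorted from B16-F10 melanoma grown in C57BL/6 mice of 6 to 14 weeks. Of the 11 pools, 4 were controls without Cre, of which 3 were XBP1 fl/fl and control 4 was XBP1 fl/fl and IRE1 fl/fl. A further 4 were XBP1 fl/fl with CD11c-CRE (XBP1ΔDC), in which the Cre removes exon 2 of Xbp1. The last 3 were XBP1 fl/fl and IRE1 fl/fl with CD11c-CRE (XBP1ΔDC IRE1truncDC), in which exons 20 and 21 of Ern1 are also removed and IRE1 lacks its RNase domain. All 11 pools thus carried the floxed Xbp1 allele. The Cre is driven by Itgax and acts in CD11c-expressing cells in general, not in cDC1s alone. Each pool held cells of 2 to 4 mice of 1 genotype, and 5000 to 20000 cells were sorted.

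Ribosomal protein genes are transcribed at high levels in nearly every cell, and their products assemble with ribosomal RNA in the nucleolus. Their mRNAs begin with a run of pyrimidines at the 5' end (TOP mRNAs), through which mTORC1 and LARP1 control how much of each is translated. IRE1 is the sensor of the unfolded protein response whose RNase splices Xbp1 mRNA into the form that encodes the factor XBP1s. In the same response PERK slows translation initiation. The 3 comparisons are used here to ask whether loss of XBP1s, alone or with the IRE1 RNase, went with a change in the mRNAs of the ribosome itself.

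The pools held 21089065 to 26843486 counts. The cDC1 markers were present in every pool at a summed 11014 to 14385 CPM, and none of the 7 T and NK cell or 3 neutrophil markers passed the filter. Melanoma markers, with Mlana, Sox10 and Tyr below the filter, summed to 8.26 to 57.5 CPM in control, 11.5 to 61.3 CPM in XBP1ΔDC and 7.95 to 10.2 CPM in XBP1ΔDC IRE1truncDC pools. Macrophage markers summed to 9.88 to 30.1, 15.9 to 74.4 and 14.2 to 33.8 CPM, and 7 of 7 had a positive log2 difference in XBP1ΔDC against control (median 0.86). None of either list was called in any comparison, and their part in the ribosomal protein values was not tested. Of all tested genes, 0.895% were called in XBP1ΔDC against control, 0.356% in XBP1ΔDC IRE1truncDC against control and 0.0731% between the Cre groups. Plasmacytoid dendritic cell markers summed to 38.8 to 47.7 CPM in control, 31.1 to 35.3 CPM in XBP1ΔDC and 22.5 to 38.6 CPM in XBP1ΔDC IRE1truncDC pools, lower in every Cre pool than in every control pool, with 0 called. The cDC1 marker sum was 13107 to 14385 CPM in control, 11014 to 12366 CPM in XBP1ΔDC and 12023 to 12836 CPM in XBP1ΔDC IRE1truncDC pools, below control in every Cre pool. Of the 11 markers, Naaa was called lower against control in both Cre groups (0.895% and 0.356% of all tested genes were called). Whether these marker sums bear on Rpl36al, Rpl10 and Rplp0, which had the same split below, was not tested. Xbp1, counted over the whole gene and so also outside exon 2, was at 244, 249, 254 and 271 CPM in control, 130.1, 152, 161 and 165 CPM in XBP1ΔDC and 212, 236 and 179 CPM in XBP1ΔDC IRE1truncDC pools. Every Cre pool was below every control pool, and the log2 fold change of Xbp1 passed the test in XBP1ΔDC (-0.74, adjusted p = 0.00167) and not in XBP1ΔDC IRE1truncDC (-0.28, adjusted p = 0.324, and -0.18 without XBP1ΔDC IRE1truncDC 3). Whole-gene counts of Ern1 were at 9.82 to 19.0 CPM in control, 9.74 to 15.6 CPM in XBP1ΔDC and 17.0 to 26.0 CPM in XBP1ΔDC IRE1truncDC pools, so the level of Ern1 does not check the removal of its exons.

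A pyrimidine run near the start, which the symbol rule did not use, was more common in windows of ribosomal protein genes than in those of other genes, though many lacked it. RefSeq promoter windows (GRCm38.p6, 250 bases before to 50 after a start) matched 61 of the 81 genes, with 72 windows. Shown first are 30-base windows, 15 bases before and 15 from the start on, of members with a C followed by at least 4 C or T that begins within 10 bases of the start, with that run in capitals.
Rpl28, chr7:4792950-4792979, plus strand: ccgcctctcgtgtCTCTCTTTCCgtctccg
Rps6, chr4:86857353-86857382, minus strand: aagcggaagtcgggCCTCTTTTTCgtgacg
Rps18, chr17:33955651-33955680, minus strand: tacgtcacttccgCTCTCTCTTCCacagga
Rps27, chr3:90213634-90213663, minus strand: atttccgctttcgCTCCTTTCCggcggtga
Rplp2, chr7:141447636-141447665, plus strand: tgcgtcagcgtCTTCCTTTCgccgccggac
Such a run was in 52.8% of the 72 windows, against 32.0% of the 10776 windows of tested genes and 30.7% of all 32851 windows. The exact hexamer CTCTTT within 15 bases of the start, on the gene's own strand, was in 11.1% against 1.02% and 1.13%, and CTTTCC in 12.5% against 1.35% and 1.42%. CTTTTC was there in 6.94% against 0.947% of tested genes, and CTTCC, which is not contained in the other 3, in 19.4% against 8.95%. On either strand of the whole window, CCGGAAG (the letters of an ETS site) was in 34.7% against 18.7% and AAGATGGC (YY1) in 11.1% against 4.75%. GGGCGG (SP1) was in 62.5% against 63.5% and TATAAA in 9.72% against 6.71%, and the NRF1 motif by its name in 2.78% against 2.19%. Each letter string was searched exactly and apart from the others, so that 1 window can count for several.

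Rpl36al, Rpl10 and Rplp0, whose windows are shown because their values are described below, had no such run at the RefSeq start.
Rpl36al, chr12:69184053-69184082, minus strand: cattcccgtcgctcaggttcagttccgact
Rpl10, chrX:74270801-74270830, plus strand: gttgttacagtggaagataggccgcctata
Rplp0, chr5:115559452-115559481, plus strand: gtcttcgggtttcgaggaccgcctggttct
A missing run says only that these letters do not start within 10 bases of the RefSeq start. TGACGTGG, the letters of an unfolded protein response element, was in 0 of 72 member windows and 0.872% of tested windows. The ER stress response element, CCAAT and CCACG at their fixed spacing, was in 0 of 72 and 0.121%.

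The genes lay on 19 chromosomes, with 14 on chromosome 7 and 4 (Rpl10, Rpl36a, Rpl39 and Rps4x) on chromosome X. Their coding sequences, annotated for 79 of the 81, ran from 138 to 1257 bases with a median of 468. A small nucleolar RNA lay inside 29 of the 81 on the same strand (35.8%), against 200 of 10324 tested protein-coding genes (1.94%). Rpl4 held 5 of the 57 such RNAs and Rpl13a held 4. A protein-coding gene on the other strand started within 1000 bases of 16 of the 81 (19.8%), against 17.7% of tested protein-coding genes.

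In all pools the ribosomal protein genes made up a small part of the reads. They took 1.78% to 1.87% of the counts in control, 1.81% to 1.92% in XBP1ΔDC and 1.72% to 1.76% in XBP1ΔDC IRE1truncDC pools, where they were below every control pool. Scaled by TMM, the summed level was 18556, 18595, 17939 and 17989 CPM in control pools (18270 ± 354, SD, n = 4). It was 19267, 18364, 17522 and 18398 CPM in XBP1ΔDC pools (18388 ± 713, SD, n = 4) and 17754, 16895 and 18170 CPM in XBP1ΔDC IRE1truncDC pools (17606 ± 650, SD, n = 3). On this scale the 3 groups overlapped, and the XBP1ΔDC pools alone ran from the highest sum of all to below every control pool. In bulk samples, fewer cells of a type and less RNA per cell cannot be told apart.

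**Figure D1:**
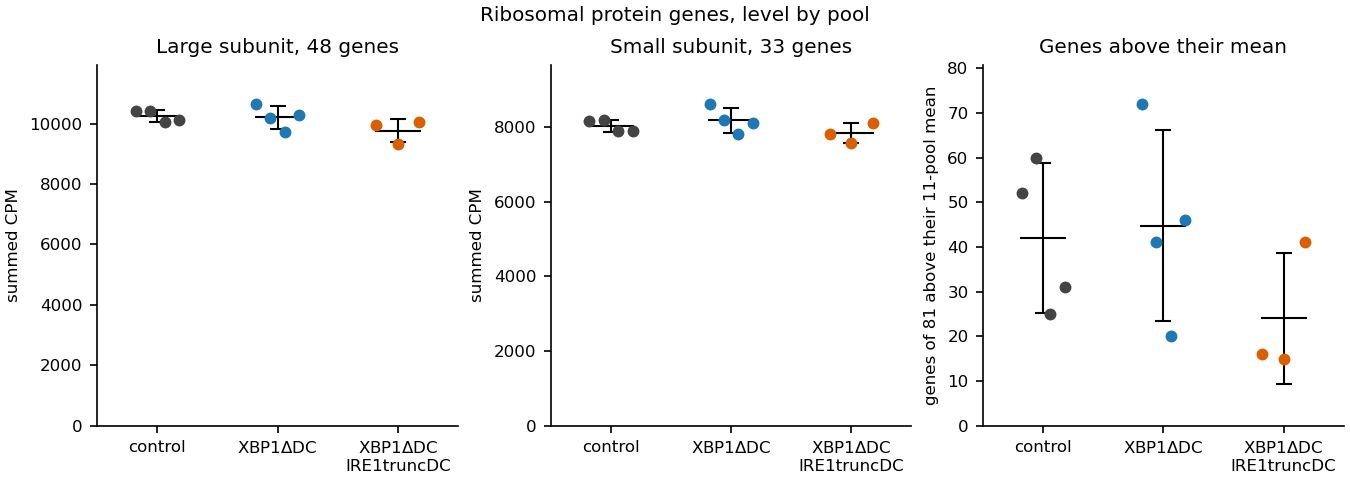
Summed CPM of the 48 large subunit genes (left) and the 33 small subunit genes (middle), and the number of the 81 genes above their own mean over the 11 pools (right), by genotype group. Each point is 1 pool, and the line and bars are the group mean and SD. The sums of the groups overlap, and the XBP1ΔDC pools span 20 to 72 genes above the mean.

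The proportion of large to small subunit mRNAs differed little between groups. The log2 of large over small subunit CPM was 0.35, 0.35, 0.35 and 0.36 in control pools, 0.31, 0.32, 0.32 and 0.34 in XBP1ΔDC pools and 0.35, 0.30 and 0.31 in XBP1ΔDC IRE1truncDC pools. The group means were 0.352 ± 0.00553, 0.321 ± 0.0164 and 0.319 ± 0.0256 (SD). The 4 XBP1ΔDC pools were below the 4 control pools by a small margin (highest 0.345 against lowest 0.347), and XBP1ΔDC IRE1truncDC overlapped both.

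Pools of 1 genotype differed widely in how many of these genes were high. The number of genes above their own 11-pool mean was 52, 60, 25 and 31 of 81 in control, 72, 41, 20 and 46 in XBP1ΔDC and 16, 15 and 41 in XBP1ΔDC IRE1truncDC pools. XBP1ΔDC 1 had the most and XBP1ΔDC IRE1truncDC 2 the fewest. The median deviation from the mean ran from -0.09 in XBP1ΔDC IRE1truncDC 2 to 0.10 in XBP1ΔDC 1 on the log2 scale. In XBP1ΔDC IRE1truncDC 2, 83 of the 112 tested ribosome biogenesis genes and 58 of the 77 tested mitochondrial ribosomal protein genes were above their own means, while 15 of 81 cytosolic ones were. With no TMM factor, scaling by library size only, the counts for control 1, control 3, XBP1ΔDC 3 and XBP1ΔDC IRE1truncDC 1 and 3 became 27, 14, 45, 9 and 25, so the order of pools depends on the scaling.

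**Figure D2:**
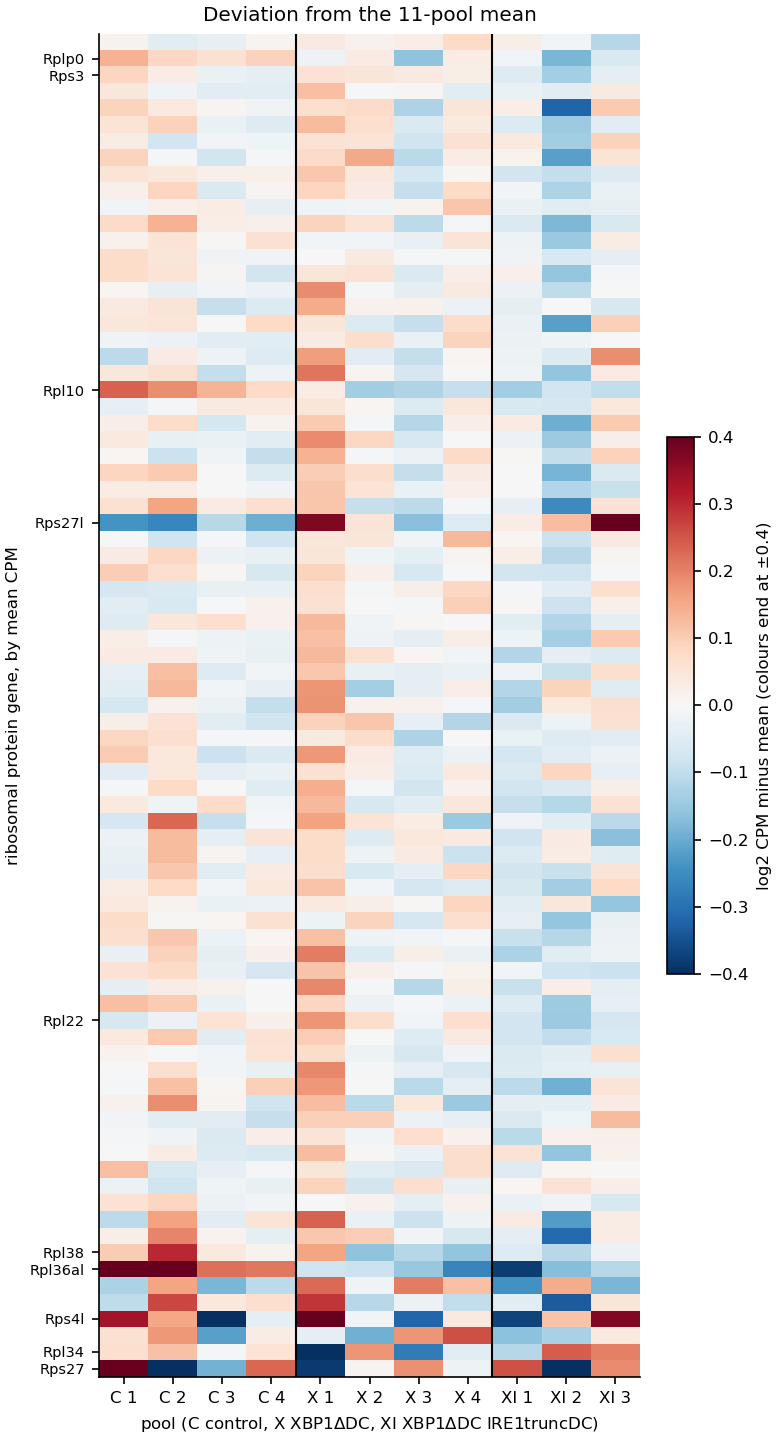
Deviation of each ribosomal protein gene (rows, by mean CPM, with 10 named) from its own mean over the 11 pools (columns), in log2 CPM, with colours ending at ±0.4. C is control, X is XBP1ΔDC and XI is XBP1ΔDC IRE1truncDC. The column of XBP1ΔDC 1 is mostly above the mean (72 of 81 genes), that of XBP1ΔDC IRE1truncDC 2 mostly below (15 of 81 above), and the rows of Rpl36al and Rpl10 are above the mean in all 4 control pools.

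The spread between control pools was small. The coefficient of variation was 3.69% for the median ribosomal protein gene, against 13.1% for the median tested gene and 8.60% for the median tested gene above 30 CPM, a level that 75 of the 81 exceeded. Rps18 was the steadiest on the log2 scale, at 299.5, 297, 293 and 293 CPM in control pools. Rps27 varied most, at 1.99, 0.815, 1.04 and 1.38 CPM.

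No ribosomal protein gene passed an adjusted p of 0.05 when XBP1ΔDC was compared with control. Of all 10951 genes tested, 0.895% did, and 0.493% also changed by over 1.5-fold. At an unadjusted p below 0.05, Rps27l was higher (1 of 81, against 2.67% of all genes) and Rpl36al and Rpl10 were lower (2 of 81, against 4.95%). DESeq2 called 2 genes (Rpl36al and Rpl10) of 181 among all genes tested, and limma-voom called Rpl36al, of 103. The median log2 fold change was 0.01, against 0.00 for all tested genes, with 45 genes higher (51.2% of all genes were) and 36 lower (48.8%). Without XBP1ΔDC 1 the median became -0.02, without control 3 it was -0.000329, and with library size only it was 0.04. The 95% interval lay within 1.5-fold for 78 of the 81 genes, against 62.3% of all tested genes. The 3 whose interval was wider were Rpl34, Rpl36al and Rps27. All tested genes, set beside the members in this and the other comparisons, were not matched to them for level. Above 30 CPM were 75 of the 81 genes and 5274 of the 10951 tested. Pools of the groups did not overlap for 5 of 81 genes (Rpl4 and Rpl41 higher and Rpl10, Rpl36al and Rplp0 lower), against 5.31% of all genes. The 3 lower were 3.70% of the 81, against 3.67% of all genes.

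None passed in XBP1ΔDC IRE1truncDC against control either, where 0.356% of all tested genes did and 0.21% also changed by over 1.5-fold. At an unadjusted p below 0.05, Rps27l was higher (1 of 81, against 5.73%) and 4 genes, Rpl36al, Rpl10 and Rplp0 among them, were lower (4 of 81, against 5.44%). DESeq2 called 2 genes (Rpl36al and Rpl10) of 199 among all genes, and limma-voom called 0 of 38. The median log2 fold change was -0.05, and 65 of the 81 genes were below 0 (80.2%, against 50.6% of all genes) and 16 above (against 49.4%). Those below included 42 of 48 large and 23 of 33 small subunit genes. Without XBP1ΔDC IRE1truncDC 2 the median was -0.03, and without XBP1ΔDC IRE1truncDC 3 it was -0.07. Pools of the groups did not overlap for 17 genes, of which 15 were lower and Rpl29 and Rps27l higher, against 10.1% of all genes. The 15 lower were 18.5% of the 81, against 5.81% of all genes. Among the 15 lower were Rpl6, Rpl8, Rpl10, Rpl22, Rpl28, Rpl36al, Rpl38, Rplp0, Rps3, Rps10, Rps12, Rps14, Rps16 and Rps27a. The 95% interval lay within 1.5-fold for 76 genes, against 56.2%, and the others were Rpl34, Rpl36al, Rps27, Rps27l and Rps4l.

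Between the 2 Cre groups no ribosomal protein gene passed, with 0.0731% of all tested genes past the threshold, each by over 1.5-fold. Only Rpl22 had an unadjusted p below 0.05 by edgeR, and it was lower (1 of 81, against 2.5%), and 0 were higher (against 2.79%). DESeq2 called 0 of 59 and limma-voom 0 of 8. The median log2 fold change was -0.06, with 73 of the 81 genes lower in XBP1ΔDC IRE1truncDC (90.1%, against 49.6% of all genes) and 8 higher (against 50.4%). Without XBP1ΔDC 1 the median was -0.03 and without XBP1ΔDC IRE1truncDC 2 it was -0.04, both smaller by more than 1.5 times, and with library size only it was -0.10, larger by more than 1.5 times. Pools did not overlap for 10 genes (12.3%, against 6.07% of all genes), all 10 lower (against 2.96% of all genes lower), namely Rpl8, Rpl15, Rpl21, Rpl22, Rpl28, Rps3, Rps3a1, Rps12, Rps25 and Rps27a. The interval lay within 1.5-fold for 79 genes, against 59.3%, and the exceptions were Rpl34 and Rps27. The 3 comparisons share pools, so these counts are not independent of each other. Many of the 81 genes were high or low in the same pools, so the genes are not separate observations of a genotype. The pool medians of the 81 genes had an SD of 0.046 on the log2 scale around their group means. The median differences of XBP1ΔDC IRE1truncDC, -0.05 against control and -0.06 against XBP1ΔDC, were near that size.

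**Figure D3:**
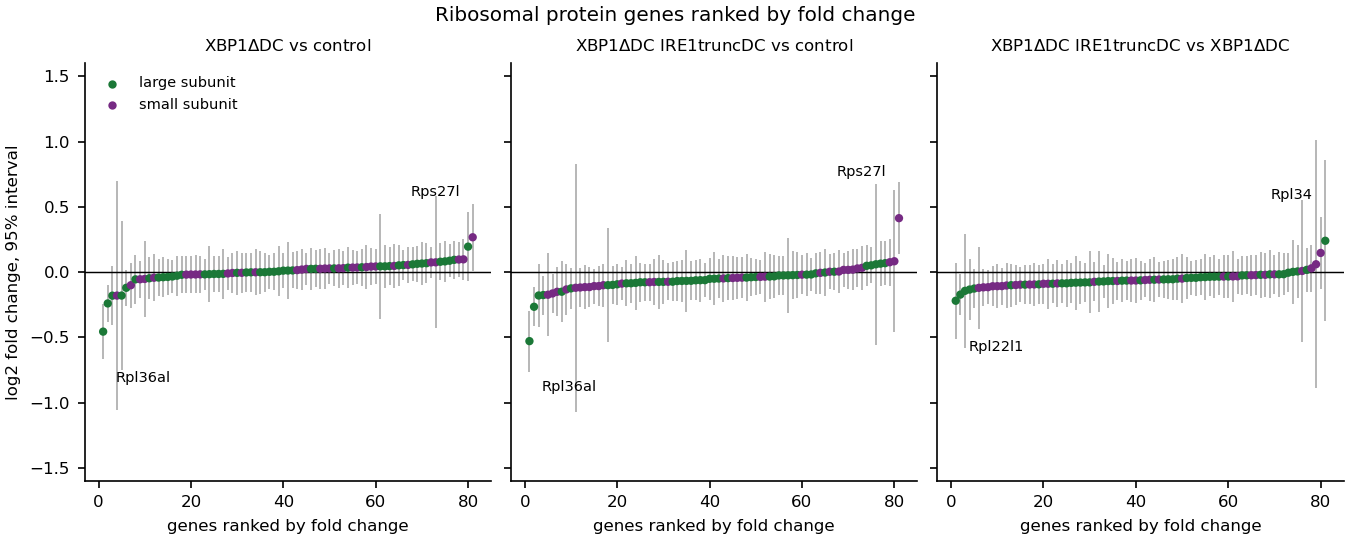
Log2 fold change of each of the 81 genes, ranked, in the 3 comparisons, with the 95% interval as grey bars. Green marks large and purple small subunit genes. Medians are 0.01, -0.05 and -0.06 from left to right, and the ends are Rpl36al at -0.46 and Rps27l at 0.27, Rpl36al at -0.53 and Rps27l at 0.41, and Rpl22l1 at -0.22 and Rpl34 at 0.24.

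Rpl36al, a paralog of the large subunit protein gene Rpl36a that lies on the minus strand at chr12:69182731-69184083 (mm10, GENCODE vM21), had the largest negative difference from control among the 81 genes in both Cre groups. It was at 44.9, 45.0, 39.6 and 39.3 CPM in control, 32.1, 32.0, 30.5 and 28.3 CPM in XBP1ΔDC and 26.1, 30.2 and 31.4 CPM in XBP1ΔDC IRE1truncDC pools. All 7 Cre pools were below all 4 control pools. The log2 difference was -0.46 in XBP1ΔDC (95% interval -0.67 to -0.24, adjusted p = 0.0535) and -0.53 in XBP1ΔDC IRE1truncDC (-0.76 to -0.30, adjusted p = 0.0597), just outside the threshold. Over the alternatives the adjusted p ran from 0.00276 to 0.180 and from 0.00197 to 0.192, and the difference stayed negative. The 2 Cre groups differed by -0.07 (-0.30 to 0.16), and leaving out control 4 gave -0.49 and -0.56 against control. Its parent Rpl36a was at 53.6 to 57.8 CPM in control, 53.0 to 55.1 in XBP1ΔDC and 52.1 to 53.9 in XBP1ΔDC IRE1truncDC pools, with log2 differences from control of -0.03 and -0.06. The log2 ratio of Rpl36al to Rpl36a was -0.46 to -0.34 in control, -0.96 to -0.77 in XBP1ΔDC and -1.04 to -0.73 in XBP1ΔDC IRE1truncDC pools.

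The start of Rpl36al faces that of Mgat2, a Golgi enzyme of N-glycan branching, on the plus strand 74 bases away by GENCODE. Mgat2 is not a ribosomal protein gene and was chosen for description after its values were seen. It was at 207, 192, 172 and 184 CPM in control, 124, 144, 120.01 and 119 CPM in XBP1ΔDC and 136, 139 and 133 CPM in XBP1ΔDC IRE1truncDC pools. It fell in XBP1ΔDC by 0.58 on the log2 scale (adjusted p = 0.00287) and in XBP1ΔDC IRE1truncDC by 0.47 (adjusted p = 0.0416). The second of these calls was lost in 12 of 20 alternatives, at adjusted p up to 0.132, among them the leaving out of any 1 of control 1, 2 or 4, XBP1ΔDC 1, 3 or 4 or XBP1ΔDC IRE1truncDC 1, 2 or 3. The first was kept in all 20, at adjusted p up to 0.0167. The 73 bases between the annotated starts, 71.2% G or C, are shown with the CCAAT boxes (ATTGG on this strand) in capitals. On the minus strand the bases read from the Mgat2 end to the Rpl36al end.
Rpl36al to Mgat2, chr12:69184084-69184156, minus strand: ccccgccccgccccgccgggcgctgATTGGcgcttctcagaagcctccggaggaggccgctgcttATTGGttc
CCAAT on either strand was in 33.3% of the 72 member windows and 38.0% of those of tested genes, so the box itself is common. Neither the RefSeq window of Rpl36al nor that of Mgat2 held TGACGTGG or the whole ER stress response element. CCACG, the second part of that element, was in the window of Rpl36al and not in that of Mgat2, and in 44.4% of member windows and 47.7% of those of tested genes. Of the 12 members whose opposite-strand partner was also tested, Mgat2 was the only partner called in either comparison with control. Of all tested genes, 0.895% were called in XBP1ΔDC and 0.356% in XBP1ΔDC IRE1truncDC against control. All 50-base stretches of the coding sequence of Rpl36al (100%), and 63.3% of those of its main transcript, were also found in transcripts of other genes, namely Gm49383, Rpl36a-ps3 and Gm44978. Gm49383 also covers 24.5% of the exonic bases of Rpl36al on the same strand. Reads from these genes cannot be told apart there.

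**Figure D4:**
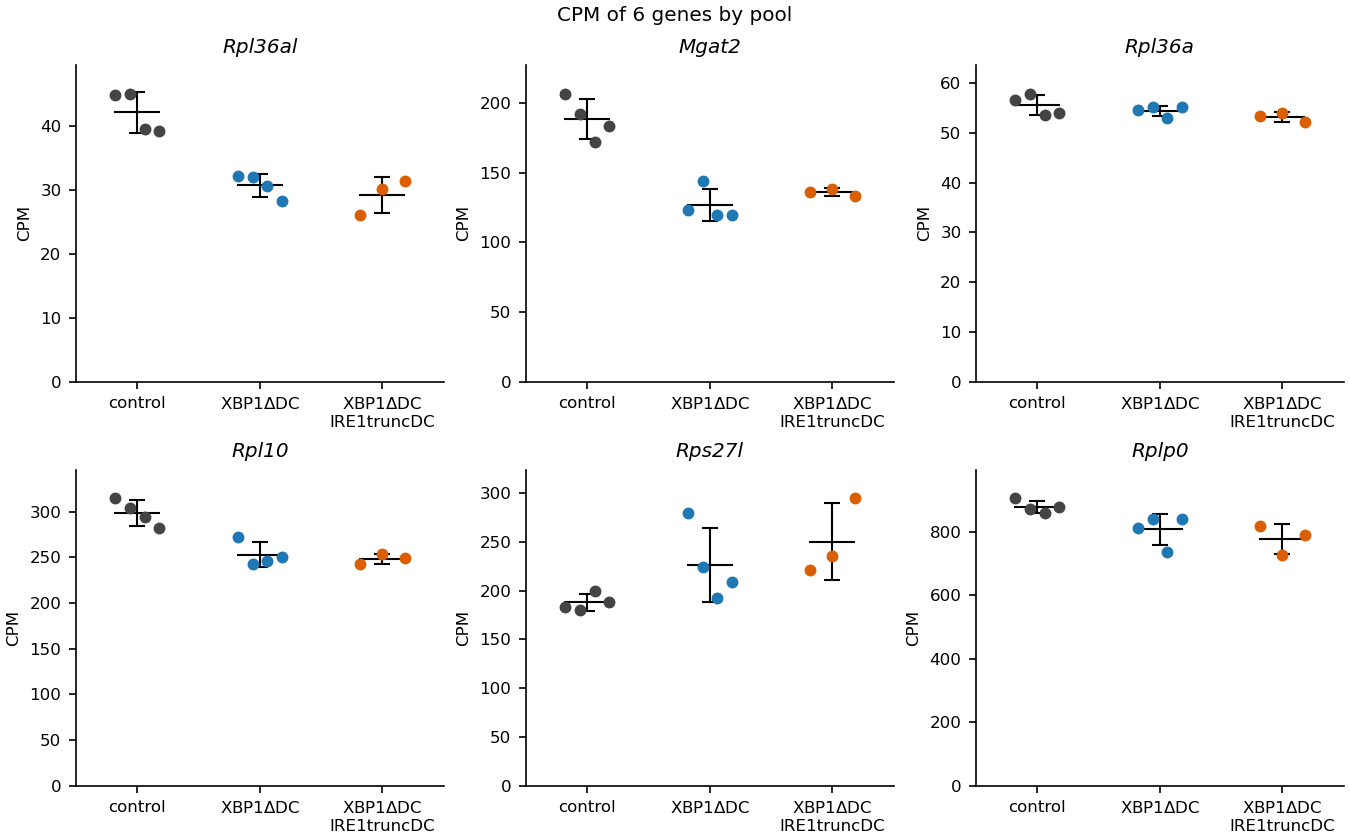
CPM of Rpl36al, its divergent neighbour Mgat2, its parent Rpl36a, Rpl10, Rps27l and Rplp0 by genotype group. Each point is 1 pool, with the group mean and SD. For Rpl36al all 7 Cre pools (26.1 to 32.1 CPM) lie below the 4 control pools (39.3 to 45.0 CPM), while the Rpl36a groups overlap.

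Rpl10, the last large subunit protein to join and a gene on chromosome X, was at 315, 304, 294 and 282 CPM in control pools, 272, 242, 246 and 251 CPM in XBP1ΔDC pools and 242, 253 and 249 CPM in XBP1ΔDC IRE1truncDC pools. The Cre pools were all below the control pools. The log2 differences were -0.24 (-0.38 to -0.10, adjusted p = 0.173) and -0.27 (-0.42 to -0.12, adjusted p = 0.161). Its coding sequence is wholly shared with other annotated transcripts, led by Rpl10-ps3.

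Rps27l, a paralog of Rps27 induced by p53 in other settings, had the largest positive difference from control in both Cre groups. It was at 183, 180, 200 and 189 CPM in control, 280, 224, 192 and 208 CPM in XBP1ΔDC and 221, 236 and 295 CPM in XBP1ΔDC IRE1truncDC pools. The XBP1ΔDC pools overlapped the control pools and the XBP1ΔDC IRE1truncDC pools did not. The log2 differences were 0.27 (0.01 to 0.52, adjusted p = 0.638) and 0.41 (0.14 to 0.69, adjusted p = 0.238). Without XBP1ΔDC 1 the first became 0.15, and without XBP1ΔDC IRE1truncDC 3 the second became 0.28. The pools with the highest Rps27l in each of the 3 groups, control 3, XBP1ΔDC 1 and XBP1ΔDC IRE1truncDC 3, also had the highest summed CPM of 5 mature dendritic cell markers in their groups (3910, 5270 and 6998), whose part in the values was not tested.

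The stalk proteins recruit and activate elongation factors at the large subunit. Rplp0, which anchors the stalk, was at 907, 872, 859 and 878 CPM in control, 813, 842, 737 and 841 CPM in XBP1ΔDC and 818, 726 and 789 CPM in XBP1ΔDC IRE1truncDC pools, all Cre pools below all control pools. Its log2 differences were -0.12 (-0.26 to 0.02, adjusted p = 0.747) and -0.18 (-0.33 to -0.03, adjusted p = 0.349), and without XBP1ΔDC 3 the first became -0.08. Rplp1 was at 259 to 272 CPM in control and 253 to 274 CPM in the 7 Cre pools, and Rplp2 at 196 to 211 and 185 to 206 CPM, and both overlapped.

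Rpl38, known for a role in translation of Hox mRNAs, was at 39.3, 45.2, 37.6 and 37.0 CPM in control, 40.9, 32.8, 33.9 and 32.8 CPM in XBP1ΔDC and 35.4, 34.0 and 36.03 CPM in XBP1ΔDC IRE1truncDC pools (log2 differences -0.18 in both, adjusted p = 0.779 and 0.619). Without control 2 the difference in XBP1ΔDC became -0.11.

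The members with the 5 smallest p between the Cre groups were Rpl22, Rps3, Rpl3, Rps27a and Rps6. Rpl22, which also regulates mRNA splicing, was at 119, 110.5, 104 and 110.2 CPM in XBP1ΔDC and 99.8, 95.1 and 100.4 CPM in XBP1ΔDC IRE1truncDC pools, a log2 difference of -0.17 (-0.33 to -0.02, adjusted p = 0.931). Rps3, which also has roles in DNA repair and NF-kB signalling, was at 733, 728, 722 and 716 CPM and 679, 641 and 687 CPM (-0.12, adjusted p = 0.967). Rpl3, part of the peptidyl transferase centre, and Rps6, the substrate of the S6 kinases, had differences of -0.13 and -0.11. Rps27a, made as a fusion with ubiquitin, had a difference of -0.12, with pools of 177 to 195 CPM and 165 to 174 CPM. Adjusted p was 0.967 for each of Rpl3, Rps6 and Rps27a.

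The ratios of Rpl22l1, Rpl7l1, Rpl37rt and Rps4l to their parents overlapped between the 3 groups. Rpl22l1 was at 20.6 to 26.1 CPM in control, 23.2 to 27.4 in XBP1ΔDC and 19.8 to 25.9 in XBP1ΔDC IRE1truncDC pools, and its log2 ratio to Rpl22 had group means of -2.23, -2.11 and -2.17. The log2 ratio of Rpl7l1, which acts in ribosome biogenesis, to Rpl7 was -0.89, -0.92 and -0.91. Rpl37rt, annotated as a transcribed processed pseudogene, and Rps4l, both without an annotated coding transcript, were at 5.31 to 7.37 and 10.2 to 22.7 CPM over the 11 pools.

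Rpl5 and Rpl11, which with 5S RNA bind and restrain MDM2, were at 109.7 to 129.5 and 121 to 139 CPM over the 11 pools, with log2 differences from control of -0.05 or smaller in size. Of 8 genes listed as mutated in Diamond-Blackfan anaemia, the 7 that were members (Rpl35a, Rps7, Rps10, Rps19, Rps24 and Rps26 among them) had 0 calls, and Rps19 was at 280.5 to 308 CPM in control, 282 to 338 in XBP1ΔDC and 290.4 to 343 in XBP1ΔDC IRE1truncDC pools. Rpl13a, which joins the GAIT complex of interferon-gamma-treated myeloid cells, was at 352 to 362 CPM in control and 336 to 410 CPM in Cre pools. Rpsa, also a laminin receptor, was at 523 to 562 and 501 to 587 CPM. Of ribosomal proteins with other symbols, Fau was at 155 to 169 CPM in control and 148 to 176 in Cre pools, and Gnb2l1 (RACK1) at 419 to 470.2 and 405 to 439.8.

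Levels per length differed far more between genes than between genotypes. Divided by the length of the main annotated transcript, mean CPM per kb was among the 5 highest for Rpl32 (946), Rps14 (836) and Rps9 (717), and lowest for Rps27 (3.54), Rpl34 (5.78), Rpl27a (33.9), Rpl22l1 (42.7) and Rps20 (45.6). The value of Rps20 rests on the transcript chosen, which has 3706 bases for a coding length of 357, and its level not divided by length was 169 CPM. The median over 79 genes was 235. Subunits have 1 copy of most of these proteins, so the low values were set beside the sequence that the genes share with copies. In the coding sequence, a median of 90.3% of 50-base stretches was also found in an annotated transcript of another gene, mostly pseudogenes, and 57 of 79 genes were above 75%. Over the whole main transcript the median was 61.2%, and 78 of 79 genes shared at least 1 stretch. Rps27 shared 100% of its coding stretches, Rpl27a 100%, Rpl34 71.7%, and Rpl22l1 84.2%, against 37.6% for Rpl32 and 43.0% for Rps9.

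Median CPM per kb was 412 for the 6 genes that shared up to 25% of their coding stretches, 381 for the 7 between 25% and 50%, 474 for the 9 between 50% and 75% and 187 for the 57 above 75%. Spearman's rho over the 79 genes was -0.43, a description, since the genes share the libraries and the length used for both measures. It was -0.17 with whole transcripts. How the counting treated reads that match more than 1 place is not given in the sources used here, so a low level of a gene with copies cannot be read as a low mRNA level. Comparisons between pools of 1 gene share this limit in every pool.

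**Figure D5:**
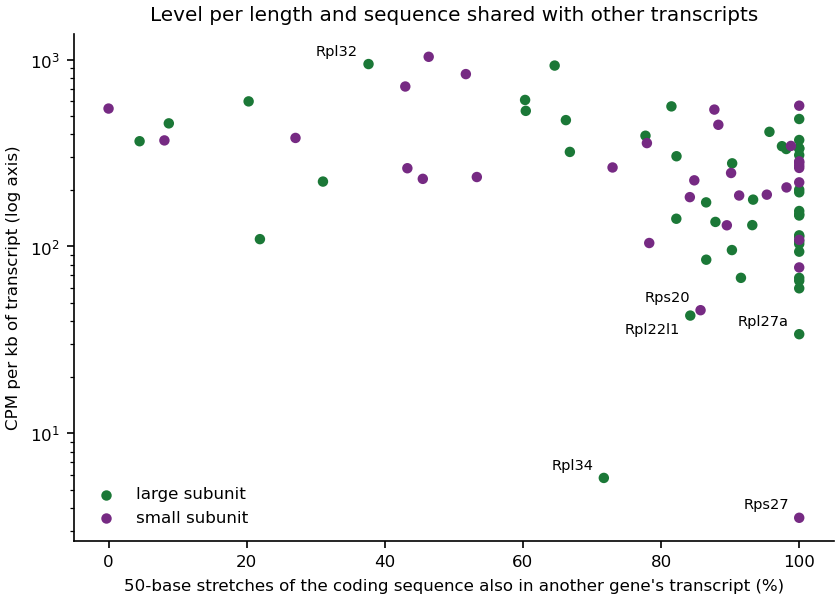
Mean CPM per kb of the main transcript (log axis) against the share of 50-base stretches of the coding sequence that another gene's annotated transcript also holds, for 79 genes (green, large subunit, purple, small subunit). Rps27 (3.54) and Rpl34 (5.78) lie far below the median of 235, and Rpl32 (946) is among the highest.

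A further 6 genes matched the symbol rule only in the count table and were not members. Rpl26 had 0 to 4 counts per pool and Rpl30 10 to 27, although both are core large subunit proteins. Rpl39l had 0 to 11 and Rpl3l 0 to 6 counts, and Rpl10l and Rps27rt had 0 in all 11 pools, where a count of 0 allows up to 3 counts.

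Other genes of the translation machinery are given from fixed lists by their counts. Over all tested genes, 0.895% were called in XBP1ΔDC against control, 0.356% in XBP1ΔDC IRE1truncDC against control and 0.0731% between the Cre groups. At those shares, 0 calls in a short list says little about its genes. Of 19 tested non-ribosomal TOP mRNAs, 0 were called in the 3 comparisons, with medians of 0.03, -0.03 and -0.04 on the log2 scale (XBP1ΔDC against control, XBP1ΔDC IRE1truncDC against control, and between the Cre groups). Of 36 initiation factors 0 were called (medians 0.02, -0.003 and -0.03), with Eif2s2, the beta subunit of eIF2, at 0.35 and 0.42 against control (adjusted p = 0.139 and 0.1002). DESeq2 called Eif2s2 in both comparisons with control and Eif3c in that of XBP1ΔDC IRE1truncDC. Of 13 elongation and termination genes (medians 0.00, -0.03 and -0.01), 112 ribosome biogenesis genes (0.06, 0.02 and -0.03) and 77 mitochondrial ribosomal protein genes (0.02, 0.01 and -0.001), 0 were called. At an unadjusted p below 0.05, these 5 lists held 4 genes higher and 4 lower in XBP1ΔDC against control (2.67% and 4.95% of all tested genes were). In XBP1ΔDC IRE1truncDC against control they held 5 higher, 4 of them initiation factors, and 4 lower (against 5.73% and 5.44%). Between the Cre groups they held 1 higher and 4 lower, 3 of the latter biogenesis genes (against 2.79% and 2.5%). Genes in more than 1 list count in each. The 3 smallest p in XBP1ΔDC against control were those of Eef1g, Naca and Eif4b for TOP mRNAs, Eif2s2, Eif2s1 and Eif3d for initiation, Eef1g, Eef2k and Gspt1 for elongation, Polr1c, Gnl3l and Riok1 for biogenesis and Mrps22, Mrpl32 and Mrpl17 for mitochondrial ribosomes. In XBP1ΔDC IRE1truncDC against control they were those of Gnb2l1, Eef1g and Eef1b2, of Eif2s2, Eif3c and Eif4a2, of Eef2k, Etf1 and Abce1, of Gnl3l, Gtpbp4 and Nop10 and of Mrps2, Mrpl13 and Mrpl17. Between the Cre groups they were those of Naca, Eef1g and Eef1a1, of Eif3c, Eif3m and Eif1a, of Abce1, Eef1g and Eef1a1, of Ubtf, Znrd1 and Brix1 and of Mrps2, Mrpl44 and Mrpl49.

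Of 16 mTORC1 pathway genes, 1 was called in XBP1ΔDC IRE1truncDC against control (0.356% of all tested genes were), and 0 in XBP1ΔDC against control (0.895%) or between the Cre groups (0.0731%). Eif4ebp1, which encodes the translation repressor that mTORC1 inactivates, was at 61.0, 64.2, 53.6 and 50.8 CPM in control, 69.7, 73.4, 73.1 and 71.6 CPM in XBP1ΔDC and 79.8, 106 and 82.3 CPM in XBP1ΔDC IRE1truncDC pools. The 3 groups did not overlap. It rose in XBP1ΔDC IRE1truncDC against control by 0.64 on the log2 scale (adjusted p = 0.0312). The call was lost in 10 of 20 alternatives, at adjusted p up to 0.128, including without control 1, 3 or 4, without XBP1ΔDC 1, 3 or 4 and without XBP1ΔDC IRE1truncDC 2 or 3. In XBP1ΔDC the difference was 0.33 (adjusted p = 0.346). Tsc1 and Eif4ebp2 were next in p there, and Mlst8 and Larp1 were, with Eif4ebp1, the 3 smallest in the other comparisons.

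Mature dendritic cell markers were higher in the Cre groups without passing the test. All 5 were higher in XBP1ΔDC IRE1truncDC than in control, with a median log2 difference of 0.78 and 0 called (0.356% of all tested genes were). Their sum was 1926 to 3910 CPM in control, 2479 to 5270 CPM in XBP1ΔDC and 3565 to 6998 CPM in XBP1ΔDC IRE1truncDC pools. The pools with the highest and the lowest sums of these markers in XBP1ΔDC, pools 1 and 3, also had the most and the fewest ribosomal protein genes above their mean (72 and 20 of 81). In control pools the order was the other way, with 25 genes above the mean in pool 3, which had the highest marker sum, and 60 in pool 2, which had the lowest. The XBP1ΔDC IRE1truncDC pools went the same way as XBP1ΔDC, with the highest sum and 41 genes above the mean in pool 3 and the lowest sum and 15 genes in pool 2. The part of these markers in the ribosomal protein values was not tested. Proliferation genes, also given because dividing cells make more ribosomes, summed to 1053 to 1423 CPM in control, 1090 to 1487 CPM in XBP1ΔDC and 1036 to 1490 CPM in XBP1ΔDC IRE1truncDC pools, and the groups overlapped.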

How the data were processed

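Per the labels and methods, the authors trimmed single-end SMART-seq v4 reads (Trimmomatic 0.39, FastQC 0.11.8), aligned them to mm10 (STAR 2.7.3a) and deposited raw counts per gene (HTSeqCount 0.11.2) and a normalised table on the log2 scale. The annotation, the use of strand and the treatment of multi-mapping reads are not given in the sources used here. The deposited log2 values equalled limma-voom log2 CPM with TMM factors for genes over 1 CPM in 3 or more pools (largest difference 4.97e-14), and were used for membership only.

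All tests used the deposited counts of 24421 genes. After a low-count filter (CPM over 1 in 4 or more pools, 10951 genes left), counts were fitted in edgeR 4.0.16 (R 4.3.3) with TMM, 1 model of the 3 groups and the quasi-likelihood test, with Benjamini-Hochberg adjustment over all of them, threshold 0.05. A sentence that prints an adjusted p refers to this test unless it names another. SE came from the F statistic, and 95% intervals from its t distribution. CPM values are TMM scaled. Alternatives used DESeq2 1.42.0, limma-voom 3.58.1, other scalings and filters, and each pool left out. The code was tested on simulated data. Pools are independent by the labels, and none were copies of each other (chi-square per degree of freedom 19.9 or more).

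Gene models and transcripts were GENCODE vM21, and 50-base stretches were searched in its transcripts, since no genome was used. Start windows came from RefSeq (GRCm38.p6). This search, its transcript choice and the unfolded protein response and CCAAT motifs were added after the data were seen.

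The members and lists were chosen with earlier results of these data known. Named genes were the 5 members with the smallest p per comparison, the 5 highest and 5 lowest per length, the subgroups by role, the steadiest and most variable in control, and the 3 smallest p of each other list, with Xbp1 and Ern1. Some genes that these rules name are not reported here.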

Additional observations from a re-analysis of the deposited data

Results flagged for a closer look

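In groups of 4 pools, 1 pool stood apart from the other 3 (gap over range above Dixon's 0.829) in 9 of 174 groups checked, and chance gives about 1 in 20. Among the ribosomal protein genes, Rpsa was at 521 CPM in XBP1ΔDC 3 against 571 to 575 in the other pools of the group. Rpl38 was at 40.9 CPM in XBP1ΔDC 1 against 32.8 to 33.9, and Rps24 at 191 CPM in that pool against 167 to 170. Rps20 was at 185 CPM in control 2 against 164 to 167. Of the other genes named, Abce1 was at 145 CPM in control 2 against 123 to 127, Eef1g at 147 CPM in control 3 against 164 to 165, Eif2s1 at 185 CPM in XBP1ΔDC 4 against 208 to 210, Gnb2l1 at 440 CPM in XBP1ΔDC 1 against 421 to 422, and Mgat2 at 144 CPM in XBP1ΔDC 2 against 119 to 124.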

How the results depend on the processing

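The count of ribosomal protein genes called was 0 in each comparison under all alternatives except DESeq2, which called 2 in XBP1ΔDC and 2 in XBP1ΔDC IRE1truncDC against control, and limma-voom, which called 1 in XBP1ΔDC. Leaving out any 1 pool gave 0 to 0 calls in each comparison. The replicate numbers do not pair the pools (mean correlation of same-number deviations -0.03), and a replicate block left 0 calls in each comparison, with medians of 0.01, -0.07 and -0.06, and moved the count over all genes from 98 to 59, 39 to 12 and 8 to 3. Leaving out each pool moved the medians between -0.02 and 0.03 (XBP1ΔDC), -0.07 and -0.03 (XBP1ΔDC IRE1truncDC) and -0.09 and -0.03 (between Cre groups). The difference of Gnb2l1 between the Cre groups changed sign without XBP1ΔDC 1 (0.0029) and without XBP1ΔDC IRE1truncDC 3 (0.017), in a range of -0.030 to 0.017 over all pools left out, and the cause was not tested. The count over all genes was 181, 199 and 59 by DESeq2 and 22 in XBP1ΔDC IRE1truncDC with only the groups compared, and leaving out pools gave 60 to 109, 17 to 33 and 4 to 11.

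Without the 5 most abundant members the summed levels were 14450, 14580 and 13977 CPM and the large to small ratios 0.24, 0.21 and 0.21 (control, XBP1ΔDC and XBP1ΔDC IRE1truncDC), by construction. By library size only, members above their mean were 27 (control 1), 14 (control 3), 45 (XBP1ΔDC 3), 9 and 25 (XBP1ΔDC IRE1truncDC 1 and 3). Leaving out pools moved the count in XBP1ΔDC IRE1truncDC 1 between 10 and 19. With coding sequence only, the shared share was 90.3%. In the whole 300-base window the shares were 34.7% (CTCTTT), 37.5% (CTTTCC), 18.1% (CTTTTC), 69.4% (CTTCC) and 100% (pyrimidine run), against 10.5%, 14.6%, 10.1%, 50.3% and 98.2% of windows of tested genes, so the differences from other genes were proportionally smaller than near the start. Genes with few counts, Rps27 and Rpl34, have intervals too wide for a 1.5-fold difference to be seen.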
